A study of Homo sapiens with 4 samples.

Results

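The CXCR2-ligand chemokines are small secreted proteins of the CXC family that carry a glutamate-leucine-arginine motif ahead of their first cysteines and call neutrophils to a tissue through the receptors CXCR1 and CXCR2. Their genes are classical targets of NF-kB, the transcription factor that inflammatory cytokines such as IL-1 and TNF switch on, and their messenger RNAs are short-lived because AU-rich elements mark them for decay. Glioma cells are known to secrete several of them, CXCL8 above all, and in tumours they are linked to neutrophil entry and vessel growth. Members were the genes CXCL1, CXCL2, CXCL3, CXCL5, CXCL6 and CXCL8, taken as every probe set whose platform annotation names exactly 1 gene, that gene being a member: 14 probe sets of 6 genes, out of 49293 probe sets and 18134 genes. A further 2 probe sets name a member together with another gene and were left out.

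The cells were U87MG, an established human glioma line, taken 48 h after transfection with PC-490, a vector for overexpression of the microRNA miR-490, or with PCDNA, its control vector. There were 2 arrays with miR-490 and 2 with the control vector, each an Affymetrix PrimeView 3' array hybridised with labelled material from 100 ng of total RNA. All 4 samples share the cell line, the transfection and the harvest time, so untransfected cells are not part of the comparison, and the line is a single tumour line with no neutrophils to answer the chemokines. The labels do not say whether replicates came from separate cultures, so the spread below may be technical, and the transfected share of cells is not given.

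The values are on the log2 scale, one for each probe set, and the authors made them with RMA, a method that corrects background, equalises the arrays and summarises the probes of a set. A difference of -1 means a halved signal. Levels of different probe sets are not compared as amounts of RNA, since each set binds with its own strength. The median level over all probe sets serves as a rough mark between brighter and dimmer sets. The medians of the 4 arrays lay between 5.15 and 5.17, and log2 differences between 2 arrays had an SD of 0.162 to 0.182 within groups and 0.162 to 0.176 between them. The markers of the line VIM and CD44 were high (13.92 and 11.89 with miR-490, 13.91 and 12.05 in controls). The glial marker GFAP, read by the brightest of its 8 sets, was at 5.68 with miR-490 and 5.75 in controls. That is a little above the median level of 5.16 over all probe sets, and most other GFAP sets were below it. Of 10 measured glioma and glial markers, 6 were above that level and the others were below it. Leukocyte markers were below that level in 11 of 13 measured genes, with PTPRC at 2.46 with miR-490 and 2.62 in controls and ITGAM at 3.36 and 3.22. Their mean level per array spanned 3.52 to 3.60 with miR-490 and 3.53 to 3.59 in controls, and 2 of the 13, CSF1R and CSF3R, were above the median level in both groups.

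The overexpressed hairpin gives rise to a pair of mature microRNAs, which recognise messenger RNAs mainly through the seed, bases 2 to 8. By design the groups differ in the miR-490 vector, so the 2 mature microRNAs are shown. Both come from chromosome 7 in GRCh38.p14 (RefSeq), plus strand, with the 5p arm at chr7:136903205-136903224 and the 3p arm at chr7:136903242-136903263, and the seed is in capitals.
hsa-miR-490-5p: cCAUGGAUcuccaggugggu
hsa-miR-490-3p: cAACCUGGaggacuccaugcug
The arms have different seeds. The microRNA itself was not analysed here, and messenger RNA target sites were not used here.

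The chemokines also share a feature that the choice of members did not use. The 6 promoter windows, from 250 bases before to 50 after the annotated start (RefSeq, GRCh38.p14, all on chromosome 4), each hold the 9 letters GGAATTTCC, a kappa B motif to which NF-kB is known to bind. Both strands were searched, and all 6 matches lie on the gene's own strand. Of 35116 promoter windows of the same length in the RefSeq table, 162 hold them (0.461%). The stretches below, 30 bases each and printed along the gene's strand, show the motif in capitals and how its flanks fall into families.
CXCL1, plus strand, chr4:73869305-73869334: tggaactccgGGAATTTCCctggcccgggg
CXCL2, minus strand, chr4:74099253-74099282: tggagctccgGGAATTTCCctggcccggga
CXCL3, minus strand, chr4:74038748-74038777: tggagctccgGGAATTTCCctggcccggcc
CXCL5, minus strand, chr4:73998748-73998777: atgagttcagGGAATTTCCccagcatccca
CXCL6, plus strand, chr4:73836579-73836608: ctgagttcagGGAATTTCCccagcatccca
CXCL8, plus strand, chr4:73740468-73740497: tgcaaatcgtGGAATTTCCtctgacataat

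The motif began 78 bases before the start in CXCL1, 77 in CXCL2, 78 in CXCL3, 90 in CXCL5, 89 in CXCL6 and 91 in CXCL8. A wider form, GGG then any 2 bases then TTTCC, which overlaps it, was present in 5 of the 6 windows, all but that of CXCL8, against 1.91% of all windows. An AP-1 motif, TGANTCA, and the letters TATAAA were each found in 1 of the 6, CXCL8, against 7.71% and 11.5% of all windows. Over the whole windows, aligned end to end, CXCL5 and CXCL6 were 83.1% identical and CXCL1 and CXCL3 82.5%, while CXCL2 was 71.9% identical to CXCL1 and 73.8% to CXCL3. CXCL8 stood apart, at 45.2% to 48% identity with the others. Because the windows of CXCL1, CXCL2 and CXCL3, and those of CXCL5 and CXCL6, share much of their sequence, the motif in them is not 6 independent occurrences. A match describes letters in a window and does not show binding.

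**Figure D1:**
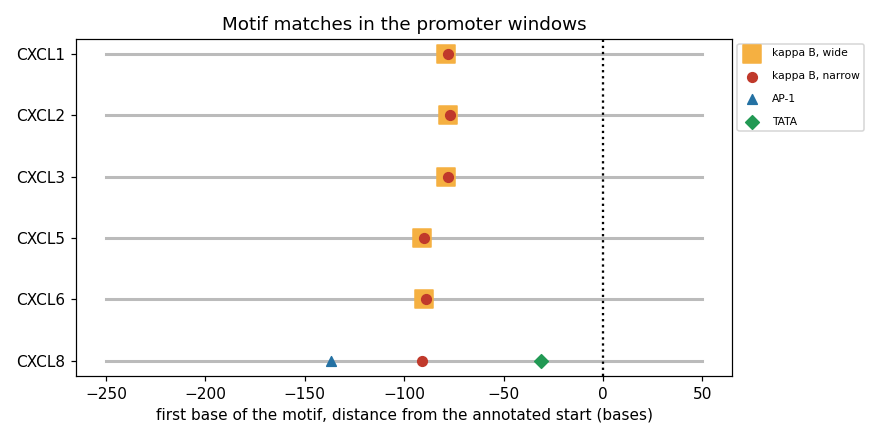
Motif matches in the promoter windows of the 6 chemokine genes; the horizontal axis is the distance in bases of the motif's first base from the annotated start, with 0 at the dotted line. The narrow kappa B motif (circles) lies 77 to 91 bases before the start in all 6 genes, and the wide form (squares) overlaps it in 5.

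These chemokines were chosen by their log2 differences between these same miR-490 and control arrays, seen earlier, so their values are a description and carry no test. With miR-490, 12 of the 14 probe sets had a lower mean (47.8% of all probe sets did), and in 11 of the 14 both miR-490 arrays lay below both control arrays (15.6% of all probe sets did). The median log2 difference of the 14 was -0.43, beside 0 for all probe sets. The probe sets above the median level, 8 sets of CXCL1, CXCL2, CXCL3 and CXCL8, were lower without overlap in 8 of 8 cases (17.6% of all sets above that level), by 0.41 to 0.60 on the log2 scale, which is 0.753 to 0.660 of the control level. These 8 sets read only 4 genes on the same 4 arrays, and some share a source sequence, so they are not independent cases. The dim sets, 6 sets of CXCL1, CXCL5 and CXCL6, were lower without overlap in 3 of 6 cases (13.5% of all dim sets), and their differences ran from -0.365 to 0.115. In these bulk RNA samples fewer cells that express a gene and less RNA per cell cannot be told apart.

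**Figure D2:**
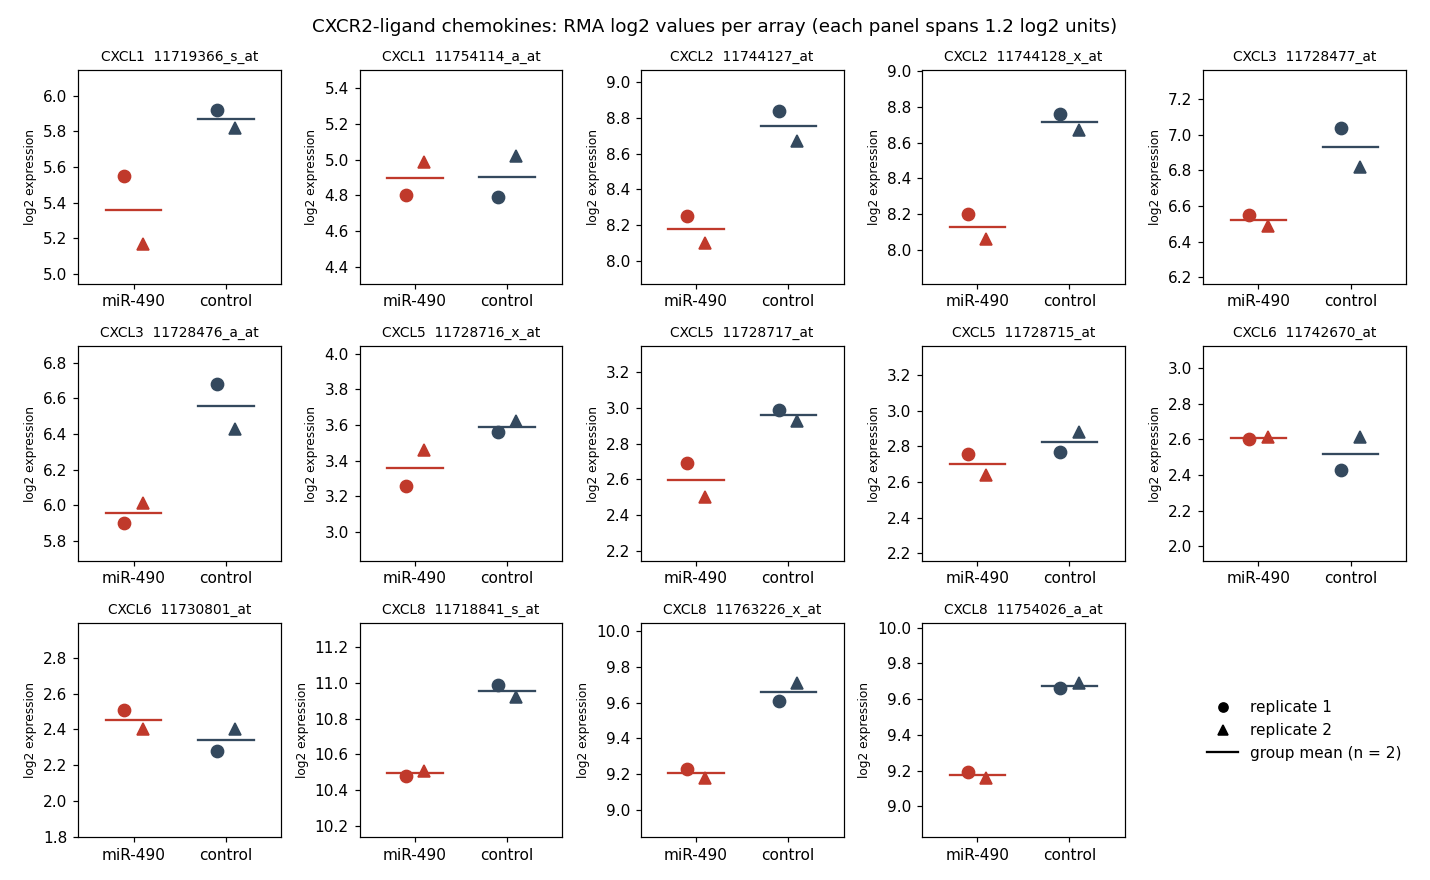
Deposited log2 values of the 14 chemokine probe sets, one panel each, with the miR-490 arrays (red) left of the control arrays (blue-grey), replicate 1 as circles, replicate 2 as triangles and group means as lines. Every panel spans the same range, so that the gap between groups can be set against the spread within them; the 2 CXCL6 panels and the 1 dim CXCL1 panel show overlapping groups.

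CXCL8, also known as interleukin-8 a potent neutrophil attractant, binds both CXCR1 and CXCR2. Its set 11718841_s_at read 10.48 and 10.51 with miR-490, against 10.99 and 10.92 in controls. The set 11754026_a_at read 9.19 and 9.16 with miR-490, against 9.66 and 9.69 in controls. The 2 miR-490 arrays were close together in both sets and clearly below the controls. The third set, 11763226_x_at, read 9.23 and 9.18 with miR-490, against 9.61 and 9.71 in controls, so that the groups did not overlap in any of the 3 sets. The last 2 sets were annotated from the same source sequence. Their log2 differences were -0.46 ± 0.068, -0.50 ± 0.065 and -0.455 ± 0.073 (standard error of the fit, n = 2 per group), or 0.727, 0.707 and 0.730 of the control level. The smallest gap between any miR-490 and any control array was 0.41, 0.47 and 0.38, while arrays of a group differed by at most 0.10.

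CXCL1, CXCL2 and CXCL3, the GRO chemokines, are close copies of each other that act mainly through CXCR2. The CXCL2 set 11744127_at read 8.25 and 8.10 with miR-490, against 8.84 and 8.67 in controls. The set 11744128_x_at read 8.20 and 8.06 with miR-490, against 8.76 and 8.67 in controls. Both miR-490 arrays were below both control arrays in each set, with log2 differences of -0.58 ± 0.097 and -0.585 ± 0.083 (standard error of the fit), or 0.669 and 0.667 of the control level. These 2 sets were annotated from the same source sequence, so they are not independent readings.

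CXCL3 had the lowest single difference among the 14. Its set 11728476_a_at read 5.90 and 6.01 with miR-490, against 6.68 and 6.43 in controls, a log2 difference of -0.60 ± 0.11 or 0.660 of the control level. The other set, 11728477_at, read 6.55 and 6.49 with miR-490, against 7.04 and 6.82 in controls, a log2 difference of -0.41 ± 0.098 or 0.753 of the control level. The groups did not overlap in either set, and the control arrays differed from each other by 0.25 and 0.22, more than the miR-490 arrays at 0.11 and 0.06.

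The probe sets of CXCL1 disagreed. The brighter set, 11719366_s_at, read 5.55 and 5.17 with miR-490, against 5.92 and 5.82 in controls, a log2 difference of -0.51 ± 0.14 or 0.702 of the control level. Its miR-490 arrays differed by 0.38, the widest replicate gap among the 14 sets. The dimmer set, 11754114_a_at, read 4.80 and 4.99 with miR-490, against 4.79 and 5.02 in controls, a log2 difference of -0.01 ± 0.12 with overlapping groups. The direction for CXCL1 thus rests on 1 of 2 probe sets. Without miR-490 replicate 2 the brighter set's difference was -0.32, and the mean of both sets gave -0.26. By the platform's naming, sets ending in _s_at or _x_at can bind more than 1 transcript, so signal shared among the near-identical GRO genes is uncertain here.

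CXCL5 and CXCL6, a pair of CXCR2 ligands made by epithelial and stromal cells, were dim in both groups. The CXCL5 set 11728717_at read 2.69 and 2.50 with miR-490, against 2.99 and 2.93 in controls, a log2 difference of -0.365 ± 0.091. The set 11728716_x_at read 3.26 and 3.46 with miR-490, against 3.56 and 3.62 in controls, a difference of -0.23 ± 0.093. In the third set, 11728715_at, the gap between groups was 0.01, with 2.76 and 2.64 with miR-490 against 2.77 and 2.88 in controls. The differences of the last 2 sets depended on single arrays: that of 11728716_x_at was -0.13 without miR-490 replicate 1, and that of 11728715_at, -0.125 over all arrays, was -0.065 without miR-490 replicate 2 and -0.07 without control replicate 2. All 3 CXCL5 sets were lower without overlap, at levels near the floor of these arrays, where RMA compresses differences. CXCL6 was the exception in direction: 11730801_at read 2.51 and 2.40 with miR-490, against 2.28 and 2.40 in controls, and 11742670_at read 2.60 and 2.61 with miR-490, against 2.43 and 2.61 in controls. The groups shared a value in each CXCL6 set, and the log2 differences were 0.115 ± 0.083 and 0.085 ± 0.086.

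Among the 24637 probe sets above the median level, the most negative differences included several chemokine sets. The CXCL3 set 11728476_a_at was the lowest of all, the CXCL2 sets were at places 2 and 5, CXCL1 at 6, the CXCL8 sets at 7, 11 and 13, and the other CXCL3 set at 27. Over all 49293 probe sets, dim ones included, the same 8 sets lay between places 6 and 99. Since the members were chosen by these same differences, their places describe that choice and are no test. In these probe sets 90% of all differences above the median level lay between -0.155 and 0.15, and below it between -0.225 and 0.24. No probe set of any gene passed an adjusted p of 0.05 (0% called; limma, Benjamini-Hochberg over 49293 probe sets, smallest adjusted p 0.900), and at an unadjusted p under 0.05 there were 2537 (5.15%), of which 1224 were lower (2.48%) and 1313 higher (2.66%). With 2 arrays against 2, an exact two-sided permutation test of 1 value cannot go below p = 0.333.

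**Figure D3:**
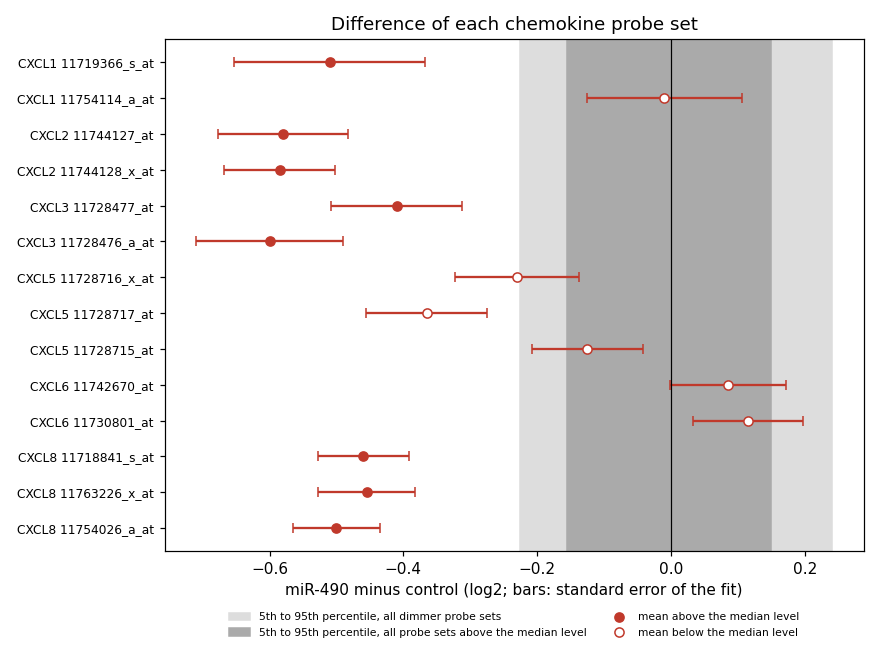
Log2 difference, miR-490 minus control, of each chemokine probe set with the standard error of the fit (bars), filled where the set's mean is above the median level and open where it is below; the shaded bands hold the middle 90% of all probe sets above the median level (dark) and below it (light). The 8 filled sets lie between -0.60 and -0.41, left of both bands, while the open sets of CXCL6 and the dim set of CXCL1 lie within them.

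The 6 genes lie together in 1 cluster on chromosome 4, with 12 other protein-coding genes inside it or within 500 kb of it (RefSeq, GRCh38.p14), and the question is whether the neighbours differ too. Expression values were analysed for 11 of these neighbours, all but AREG. None passed the threshold (limma, smallest adjusted p 0.900), while 8 had lower means and 3 higher (47.8% of all probe sets were lower), with a median log2 difference of -0.085, and 2 had an unadjusted p under 0.05 (5.15% of all probe sets did). EREG, which encodes epiregulin, a ligand of the EGF receptor, read 7.91 and 7.71 with miR-490, against 8.33 and 8.20 in controls. Its log2 difference was -0.455 ± 0.10 (limma adjusted p 0.900, unadjusted p 0.00705), within the range of the chemokines. Its other 3 sets had differences of -0.27, -0.105 and 0.08 at lower levels.

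PF4V1, a platelet factor variant gene that sits between CXCL6 and CXCL1, went the other way, with 5.97 and 5.82 with miR-490 against 5.52 and 5.69 in controls, a difference of 0.29 ± 0.097 (limma adjusted p 0.900). Its other set, at a lower level, was also higher without overlap, at 0.215 ± 0.089. PF4V1 is a close copy of PF4, so its signal is uncertain. The platelet chemokine genes PF4 and PPBP, of which PPBP encodes another CXCR2 ligand, were dim, with differences of 0.04 ± 0.096 and -0.05 ± 0.11. EPGN, an EGF receptor ligand next to EREG, was also dim at -0.09 ± 0.14, AFP, a fetal serum protein gene, had -0.265 ± 0.13, and MTHFD2L, a mitochondrial folate enzyme gene, had -0.13 ± 0.088. Neither kappa B form was found in the 14 promoter windows that the table holds for 11 of the neighbours, all but PF4, with EREG and AREG among them.

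**Figure D4:**
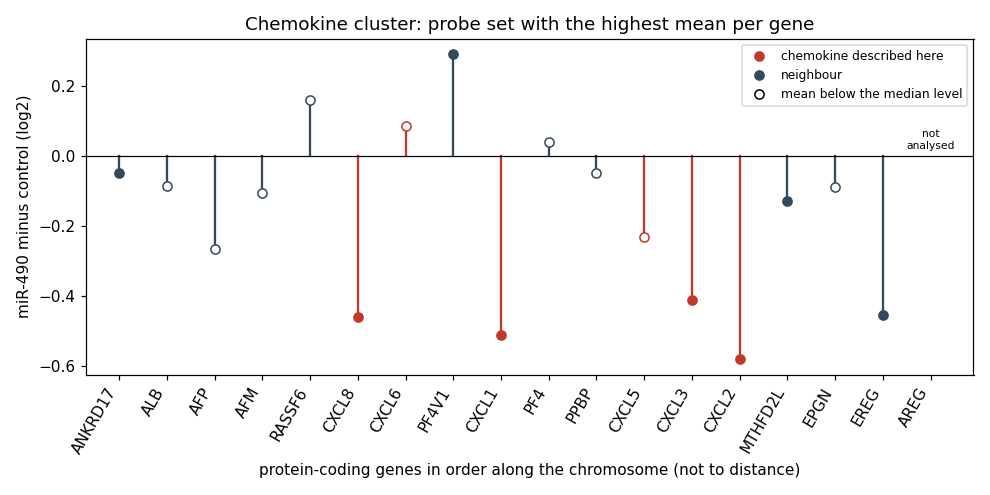
Log2 difference, miR-490 minus control, of the probe set with the highest mean for each protein-coding gene in order along chromosome 4, chemokines described here in red, neighbours in blue-grey, open points below the median level. CXCL8, CXCL1, CXCL3, CXCL2 and EREG lie between -0.58 and -0.41, with PF4V1 at 0.29 among them.

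The receptors of these chemokines were dim in U87MG. CXCR2 read 2.65 and 2.59 with miR-490, against 2.59 in both controls, and CXCR1 read 3.72 and 3.99 with miR-490, against 3.77 and 4.03 in controls. ACKR1, a decoy receptor that binds chemokines without signalling, read 4.99 and 5.07 with miR-490, against 5.09 and 5.11 in controls. Their log2 differences were 0.03 ± 0.066, -0.045 ± 0.14 and -0.07 ± 0.069, and none passed (limma, smallest adjusted p 0.953). Dimmer sets of both receptors were higher with miR-490 without overlap, at 0.325 for the other CXCR1 set and 0.175 and 0.165 for the other 2 CXCR2 sets, so the CXCR1 sets disagreed in sign. Among 11 measured genes that carry the signal inside the cell, each read by its brightest set, 0 passed and 0 had an unadjusted p under 0.05. Their median difference was -0.01. Those with the smallest p were GRK6, a kinase that desensitises the receptors, at 0.125 ± 0.080, the G protein subunit GNAI2 at 0.195 ± 0.13, the Rac activator PREX1 at -0.055 ± 0.068, and GRK2 at -0.065 ± 0.093.

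The other 11 CXC chemokines had mixed directions: 5 had higher and 5 lower means, 1 had equal means, the median difference was 0, and 0 passed (limma, smallest adjusted p 0.900). CXCL14, a chemokine of epithelia, read 4.73 and 4.72 with miR-490, against 4.98 and 4.92 in controls, a difference of -0.225 ± 0.066. CXCL9, one of the interferon-induced ligands of CXCR3, had 0.105 ± 0.067 and CXCL12, the ligand of CXCR4, -0.12 ± 0.078. All but PF4V1 were below the median level.

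Upstream, 16 genes of the inducing cytokines and their signalling were measured, with 9 lower and 7 higher means, a median difference of -0.028 and 0 past the threshold (limma, smallest adjusted p 0.900). The 2 genes with an unadjusted p under 0.05 were both interleukin-1 cytokines, which induce these chemokines. IL1B read 9.29 and 9.27 with miR-490, against 9.67 and 9.68 in controls, a difference of -0.395 ± 0.064. IL1A read 5.77 and 5.61 with miR-490, against 5.93 and 5.89 in controls, a difference of -0.22 ± 0.083. The groups did not overlap in either gene. IL17RA, the IL-17 receptor chain, had 0.14 ± 0.087, and IL17A itself, dim, -0.255 ± 0.16. The cytokine TNF was dim, with a difference of 0.105 ± 0.094.

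Of 16 NF-kB subunits and regulators, 15 were above the median level. In this list 12 genes had lower and 3 higher means (12323 of the 24637 probe sets above the median level were lower). In 6 of the 16 the miR-490 arrays lay below the controls without overlap (17.6% of all sets above the median level did), and the median difference was -0.058, beside -0.005 for all sets above that level. None passed (limma, smallest adjusted p 0.900) and 1 had an unadjusted p under 0.05. That gene, NFKBIZ, encodes a nuclear cofactor of NF-kB that NF-kB itself induces. It read 8.16 and 8.14 with miR-490, against 8.47 and 8.52 in controls, a difference of -0.345 ± 0.066. NFKBIA, the feedback inhibitor, read 10.59 and 10.53 with miR-490, against 10.82 and 10.70 in controls, a difference of -0.20 ± 0.077. TNFAIP3, the feedback deubiquitinase A20, had -0.15 ± 0.064, although its other set had 0.065 ± 0.075, and the subunit NFKB1 had -0.11 ± 0.066. The subunit RELA had a difference of -0.02 ± 0.072, although its other 2 sets had 0.285 ± 0.33 and 0.11 ± 0.22, with overlapping groups.

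The 11 listed factors of messenger RNA decay and stability, not all of which act through AU-rich elements, had a median difference of -0.03. There were 7 lower and 4 higher means, 0 past the threshold and 0 with an unadjusted p under 0.05 (limma, smallest adjusted p 0.906). ZC3H12A, an RNase that degrades inflammatory messenger RNAs, had -0.125 ± 0.071 and the decay factor ZFP36L1 -0.075 ± 0.064. The kinase MAPKAPK2, which stabilises such messages, had 0.065 ± 0.065 and the deadenylase CNOT7 -0.055 ± 0.067. ZFP36, the best known decay factor of this group, had a difference of 0.01 ± 0.069. Across the 9 lists of pathway genes and markers, 96 of 99 genes were measured, 0 passed, and 7 had an unadjusted p under 0.05 (limma; 5.15% of all probe sets did). Among the markers, S100A12 and CD3E, both dim, had such a p, with differences of 0.17 ± 0.064 and -0.29 ± 0.084, followed by PTPRC at -0.16 ± 0.066 and S100A9 at 0.16 ± 0.091. The PTPRC value is that of 1 set, and its 5 other sets ran from -0.11 to 0.205, with 4 of them above 0. Of 5 endothelial markers, TEK had -0.25 ± 0.099 and PECAM1 0.18 ± 0.082, and of 10 glioma and glial markers FABP7 had -0.195 ± 0.092, with 0 of either list past the threshold or at an unadjusted p under 0.05. For several genes named from these lists and from the cluster, other sets also included differences of the opposite sign. Among them were CXCL12 (-0.185 to 0.22), CXCL14 (-0.205 to 0.045), GRK2 (0.11), GRK6 (-0.065 to 0.17), FABP7 (0.095), ZFP36L1 (-0.02 to 0.135), CNOT7 (-0.025 to 0.035) and MTHFD2L (-0.195 to 0.185). The same held for RELA (0.11 to 0.285), EPGN (-0.185 to 0.21), CD44 (-0.135 to 0.06), GFAP (-0.14 to 0.275), ITGAM (-0.165 to 0.015) and VIM (-0.005). The part of other cell types in the chemokine values was not tested.

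**Figure D5:**
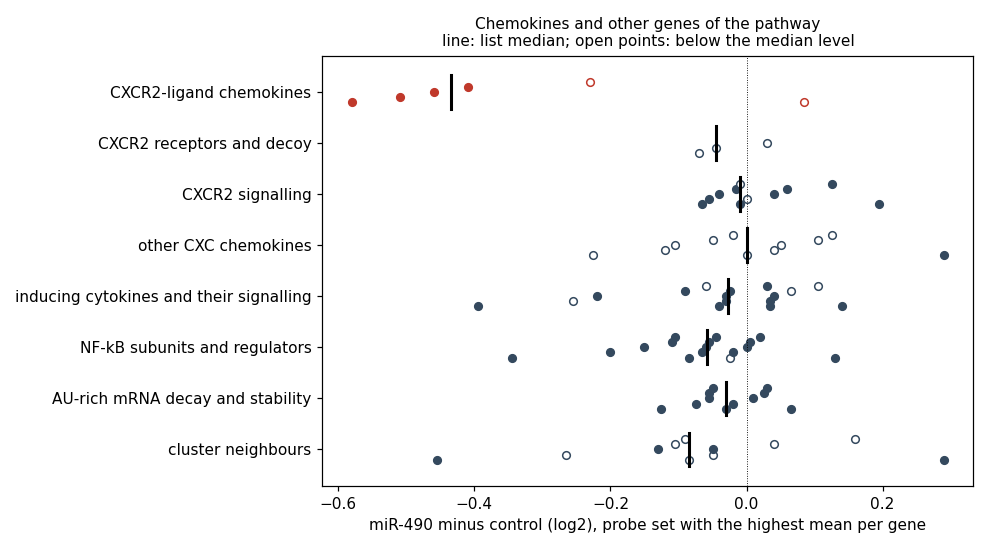
Log2 difference, miR-490 minus control, of each gene (1 probe set per gene, highest mean) for the 6 chemokines (red) and 7 lists of related or neighbouring genes (blue-grey), with the list median as a line and open points for genes below the median level. The chemokine median is -0.435 by this choice of probe set, and the medians of the other lists lie between -0.085 and 0.

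The genes most like the bright chemokine sets were found by the root mean square distance, over the 4 arrays, between centred log2 values and the mean of the 8 chemokine sets above the median level. This is a description over 4 arrays. The nearest of 22525 probe sets was that of EREG, the cluster neighbour, at a distance of 0.0516, where the median was 0.264. GDF15, a stress-induced cytokine (0.0527), MMP3, a matrix protease (0.0544), ATP2B1, a calcium pump (0.0583), IL6, an inflammatory cytokine (0.0583), and PSAT1, an enzyme of serine synthesis (0.0611), followed. MMP3 read 7.25 and 7.24 with miR-490, against 7.73 and 7.60 in controls, and IL6 read 8.82 and 8.80 with miR-490, against 9.26 and 9.17 in controls. Other sets of the same genes were mostly smaller in difference, at -0.065 for IL6, -0.255 to 0.035 for GDF15, -0.31 to -0.20 for ATP2B1 and -0.365 to -0.215 for PSAT1. The 8 chemokine sets are part of the mean they are measured against, which by construction brings them close to it. They were at 0.0414 and 0.0487 for CXCL2, 0.0489 to 0.0760 for CXCL8, 0.0679 and 0.0978 for CXCL3 and 0.105 for the brighter CXCL1 set. The dim CXCL5 set 11728717_at was at 0.0838, and both CXCL6 sets were above 0.3.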

How the data were processed

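The submitters' processing notes name RMA as what the authors used to make the deposited log2 values; its software, version and settings are not stated there. Samples were grouped by their titles. The platform annotation gives a single gene for 44988 of 49293 probe sets, and 44961 of these took a current symbol from RefSeq by Entrez ID; 1832 name several genes and 2473 none. Members and lists were chosen with earlier results of these data known. All probe sets were fitted in R 4.3.3 with limma 3.58.1 (lmFit, eBayes without trend or block; 2 residual and 2.73 prior degrees of freedom). P-values are two-sided, adjusted by Benjamini-Hochberg over all probe sets, with a threshold of 0.05. On simulated data the fit was checked for the size of its estimates, and how often it detects a change is not given here. Members got no test. Every other gene is shown by its brightest probe set (highest mean over the 4 arrays) among those naming it alone. Named were, of each list, up to 4 genes with the smallest p, fixed markers, receptors and cluster genes, and the 6 genes nearest in profile; TNF, RELA, ZFP36, CSF1R and the genes with the kappa B letters were added after their values were seen. The number of arrays limits the precision (median standard error 0.0842). Promoters were aligned globally with biopython 1.88, and figures drawn with matplotlib 3.10.9. Alternatives were quantile normalisation, median centring, dropping dim sets, an intensity trend, another choice of probe set, an ordinary test, leaving out each array and the replicate number as a block. Detection calls and scan dates were not used here, and no test for batches was made.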

Additional observations from a re-analysis of the deposited data

How the results depend on the processing

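No probe set passed the adjusted threshold under any alternative that was run, and neither did any pathway gene or cluster neighbour. At an unadjusted p under 0.05 (limma) the count over all probe sets was 2537 as reported, 2549 after quantile normalisation, 2540 after centring and 2320 with a trend, and the ordinary test gave 2613. It ranged from 1679 without miR-490 replicate 2 to 3048 without control replicate 2. Of the pathway genes 7 were at that level as reported, 3 without control replicate 1 and 4 without miR-490 replicate 1; of the neighbours 2 were, 1 without control replicate 2 or miR-490 replicate 1, and 0 without miR-490 replicate 2. The median chemokine difference was -0.43 as reported, -0.42 after quantile normalisation, -0.44 after centring, -0.505 over the 8 bright sets, -0.435 with 1 set per gene and -0.37 with the mean of a gene's sets. Leaving out 1 array, where the single array is taken to vary as the remaining pair does, gave -0.45 (without miR-490 replicate 1) to -0.355 (without miR-490 replicate 2). Of 118 single chemokine values under alternatives 3 changed sign, all in dim sets: CXCL1 11754114_a_at in 2 cases and CXCL6 11742670_at in 1, with 0 of 72 in the bright sets. With the replicate number as a block 0 probe sets passed, 1936 had an unadjusted p under 0.05, with 4 pathway genes and 1 neighbour among them, and the chemokine median was -0.43; the labels do not say that a number marks a pairing, and deviations of same-numbered arrays correlated at -0.0844 across probe sets. Dim sets lie near the floor of the arrays, which limits what CXCL5 and CXCL6 can show.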

Other observations

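The kappa B letters that the 6 chemokine promoters share were also counted in the promoters of all other genes, a count added after the values were seen. Leaving out the chemokines, 45 genes above the median level (1 probe set per gene, highest mean) have a promoter window with GGAATTTCC, and in 14 of them (31.1%) the miR-490 arrays lay below the controls without overlap, where 1517 of 8473 genes without the letters did (17.9%). The median log2 difference was -0.025 with the letters and 0 without. The most negative were NFKBIZ at -0.345, ICAM1, an adhesion molecule for leukocytes, at -0.305, and NFKBIA at -0.20, followed by MSRB3 and SEC24A at -0.14 each. These names show only the low end of the 45, and the high end was not listed. NFKBIZ and NFKBIA were already among the NF-kB regulators above, and ICAM1, at a mean of 5.17, barely exceeded the median level of 5.16. Of the 45 genes 27 had a lower mean with miR-490, where 4139 of the 8473 genes without the letters did. Differences between the shares were not tested.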
